A study of Mus musculus with 12 samples.

Results

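Basal and luminal keratins were followed as 8 genes, Krt5, Krt14, Krt15, Krt17, Krt7, Krt8, Krt18 and Krt19, taken by symbol from the 56748 genes of a deposited table of read counts. Each symbol matched 1 protein-coding gene, and all 8 were among the 20229 genes tested. The RNA came from whole lungs of mice aged 4.5 months that carried MMTV-PyMT, a transgene in which a mammary tumour virus promoter expresses polyoma middle T antigen in the mammary gland. Mice with it develop mammary tumours that spread to the lung. The 12 libraries formed 3 groups of 4. The C3 knockout (C3 KO) was labelled MMTV-Cre;C3Tdt:MMTV-PyMT, the S1pr1 knockout (S1pr1 KO) MMTV-Cre;S1pr1fl/fl; MMTV-PyMT, and the wild type (WT) MMTV-Cre; MMTV-PyMT. All groups therefore carried the oncogene and the MMTV-driven Cre, and the labels describe the treatment of all samples as lung metastasis. Cre under this promoter is active mainly in mammary and some other secretory epithelia, and a cell without Cre keeps a floxed gene. No label states that each library is its own animal, and the p-values therefore reflect only how far these libraries spread, which may be technical.

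Keratins are the intermediate filament proteins of epithelia. A filament forms only when a type I chain pairs with a type II chain, and which pair a cell makes marks its kind of epithelium. Krt5 (type II) and Krt14 (type I) are the pair of basal cells in stratified epithelia, in the large airways and in the basal and myoepithelial layer of the mammary gland. Krt15 and Krt17 are type I chains, Krt15 of basal cells and hair follicle stem cells and Krt17 of wounded epidermis, skin appendages and some basal cells. Krt8 (type II) and Krt18 (type I) are the pair of simple epithelia, and they are joined by Krt7 (type II) and Krt19 (type I) in ducts and airways. In the mammary gland this second set marks the luminal layer, and in the lung it is made by alveolar and airway epithelium and by mesothelium.

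On GRCm39, the build of the deposited table, the members lay on 2 chromosomes. The type I genes Krt15 (ENSMUSG00000054146, chr11:100022584-100026754), Krt19 (ENSMUSG00000020911, chr11:100031636-100039491), Krt14 (ENSMUSG00000045545, chr11:100093988-100098374) and Krt17 (ENSMUSG00000035557, chr11:100147043-100151855) stood on the minus strand of chromosome 11. The type II genes Krt7 (ENSMUSG00000023039, chr15:101308924-101328194, plus strand), Krt5 (ENSMUSG00000061527, chr15:101615505-101621333, minus strand) and Krt8 (ENSMUSG00000049382, chr15:101905133-101912917, minus strand) stood on chromosome 15. Krt18 (ENSMUSG00000023043, chr15:101936615-101940462, plus strand) is the type I gene that lies beside Krt8 in the type II cluster, and it is read in the opposite direction from its partner.

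Promoters are shown for the filament partners Krt8 and Krt18, and Krt5 and Krt14, whose levels are compared across libraries below, and for Krt7. RefSeq promoters on GRCm38.p6, another build than that of the counts, were matched for 5 of the 8 members. The 120 bases before the RefSeq start were chr15:101712906-101713025 (minus strand) for Krt5, chr11:100206031-100206150 (minus strand) for Krt14, chr15:101412283-101412402 (plus strand) for Krt7, chr15:102004343-102004462 (minus strand) for Krt8 and chr15:102028096-102028215 (plus strand) for Krt18. Capitals mark 3 motifs searched on both strands, ATAAA (the core of many TATA boxes), GGGCGG (a GC box, which Sp1 binds) and GCCNNNGGC (the AP-2 consensus), which were chosen after the sequences had been seen.
Krt5: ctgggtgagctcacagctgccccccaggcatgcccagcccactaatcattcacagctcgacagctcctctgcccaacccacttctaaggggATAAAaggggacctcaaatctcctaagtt
Krt14: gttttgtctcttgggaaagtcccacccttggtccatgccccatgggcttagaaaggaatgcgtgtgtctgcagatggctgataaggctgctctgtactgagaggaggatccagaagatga
Krt7: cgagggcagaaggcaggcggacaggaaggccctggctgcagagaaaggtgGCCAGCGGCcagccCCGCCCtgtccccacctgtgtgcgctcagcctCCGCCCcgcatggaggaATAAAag
Krt8: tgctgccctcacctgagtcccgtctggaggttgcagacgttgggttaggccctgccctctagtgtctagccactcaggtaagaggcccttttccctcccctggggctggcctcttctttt
Krt18: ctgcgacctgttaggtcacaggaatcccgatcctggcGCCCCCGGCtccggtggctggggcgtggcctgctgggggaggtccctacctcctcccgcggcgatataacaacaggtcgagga
Krt5 held ATAAA at positions -29 to -25 from the start, and Krt7 held it at -7 to -3. Krt7 also held 2 GC boxes on the minus strand and 1 AP-2 match, and Krt18 held 1 AP-2 match at -83 to -75. None of the 3 letter strings was in these windows of Krt14 and Krt8. Of 32851 RefSeq promoters, 20.2% held ATAAA, 26.5% held GGGCGG and 7.98% held GCCNNNGGC in the same window, so a match is common and is only a description. The GC content ran from 51.7% in Krt14 to 68.3% in Krt7, beside a median of 54.2% over all promoters.

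Total counts were 32274797 to 53063470 reads per library, and Pearson correlations of log2 CPM between libraries were 0.963 to 0.988. CPM here is the read count relative to the library total after TMM scaling. In 2 libraries labelled as knockouts the targeted gene did not lie below the WT range. C3 was at 475, 465, 601 and 1416 CPM in the libraries labelled C3 KO 1 to 4, against 787 to 1025 CPM in WT. S1pr1 was at 132, 366, 142 and 154 CPM in the libraries labelled S1pr1 KO 1 to 4, against 295 to 491 CPM in WT. The library labelled C3 KO 4 was thus above every WT library for C3. The library labelled S1pr1 KO 2 lay within the WT range for S1pr1, above WT 1, WT 3 and WT 4 and below WT 2. Cells without Cre keep a floxed gene, so whole-lung levels cannot settle whether these labels are right. Every direction below that includes these 2 libraries rests on their labels. In addition, WT 2 held transcripts of stratified squamous epithelium far above their level in the other libraries, which are described with the basal keratins.

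Per kilobase of the listed gene length, each of the 4 luminal keratins stood above each of the 4 basal ones in every library. The deposited FPKM averaged 98.6 ± 16.0 for Krt8, 94.0 ± 11.8 for Krt19, 63.7 ± 8.44 for Krt18 and 60.02 ± 4.83 for Krt7 (mean ± SD, n = 12). It averaged 4.42 ± 5.02 for Krt15, 2.36 ± 5.05 for Krt5, 0.983 ± 1.93 for Krt14 and 0.324 ± 0.436 for Krt17. Krt19 exceeded Krt18, and Krt7 exceeded Krt15, in 12 of 12 libraries. The order was less even elsewhere: Krt8 exceeded Krt19 in 9 libraries, Krt18 exceeded Krt7 in 7, and Krt5 exceeded Krt14 in 7. The listed length of Krt7 was 7049 bases, against 1437 to 2197 bases for the other members, and its FPKM depends on that length.

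**Figure D1:**
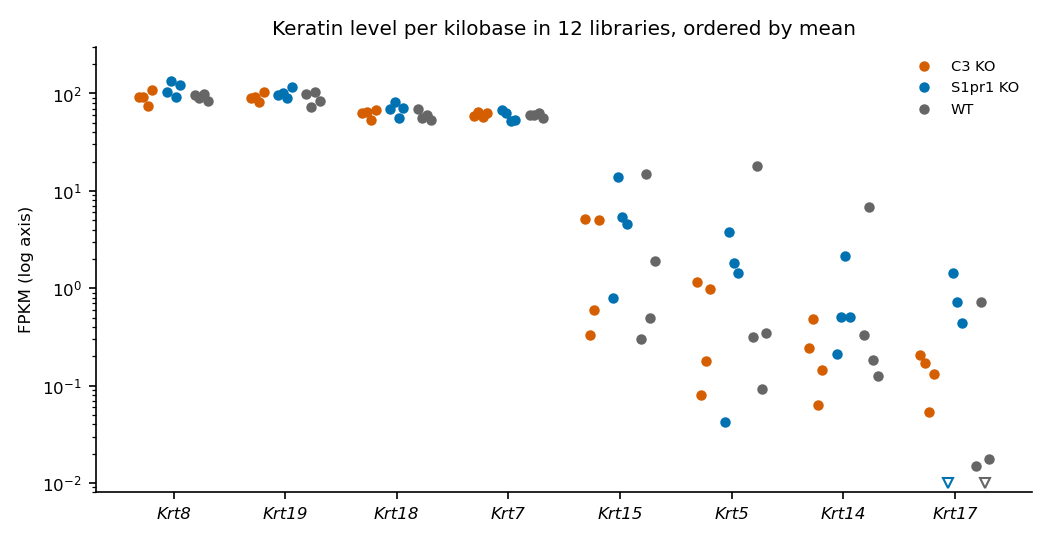
Deposited FPKM (log axis) of the 8 keratins in 12 libraries, ordered by mean, with C3 KO, S1pr1 KO and WT libraries as orange, blue and grey points from left to right. Krt8, Krt19, Krt18 and Krt7 lie between 52.0 and 133 FPKM, the other 4 spread from 18.0 FPKM down to 0, and open triangles at the lower edge stand for Krt17 values of 0.

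The 3 type II members and the 5 type I members summed to similar FPKM in every library, with a ratio of type II to type I between 0.909 and 1.10. That balance depends on the listed length of Krt7, 7049 bases, and does not hold in CPM. In WT, Krt7 averaged 422 CPM and Krt8 181 CPM, against 166 CPM for Krt19 and 86.1 CPM for Krt18. Among single pairs, the FPKM ratio of Krt8 to Krt18 ran only from 1.41 to 1.69. The ratio of Krt5 to Krt14 ran from 0.166 in C3 KO 2 to 7.45 in the library labelled S1pr1 KO 2, so the basal partners were not held at a fixed proportion. Basal members made up 0.334 to 2.15% of the summed FPKM of the 8 in C3 KO, 0.310 to 4.88% in S1pr1 KO, and 0.296, 12.7, 0.237 and 0.867% in WT 1 to 4.

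None of the 8 keratins passed in C3 KO against WT by edgeR's quasi-likelihood test at an adjusted p of 0.05 over all genes, where 0.00989% of tested genes were called. Those were 2 genes, the mitochondrial transcript mt-Nd3 and Gm28438, named here because they are all that were called. None of the 8 was called in S1pr1 KO against WT, where 1.35% of genes were called, or in S1pr1 KO against C3 KO, where 0% were. The C3 KO and WT groups overlapped in CPM for all 8 members, so 0 of 8 were separated, beside 6.09% of tested genes. The same count was 0 of 8 beside 11.3% for S1pr1 KO against WT, and 0 of 8 beside 6.4% for S1pr1 KO against C3 KO. Before adjustment 1 of 8 members fell under 0.05 in each comparison, Krt14 in C3 KO against WT and Krt8 in both comparisons of S1pr1 KO. Of all 20229 tested genes, 2217 did so in C3 KO against WT and 3651 in S1pr1 KO against WT. In S1pr1 KO against C3 KO 2437 did. DESeq2, which gave no adjusted p for Krt14, and limma voom also called 0 of 8 in each comparison. S1pr1 KO against C3 KO had 0 genes called in edgeR, with 2437 under an unadjusted 0.05, 295 called by DESeq2 and 36 by limma voom.

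The luminal keratins stayed within 1.31 to 1.78 times between the lowest and the highest library. Krt8, the type II chain of simple epithelia and a marker of alveolar cells in transition after injury, was at 180, 182, 146 and 210 CPM in the libraries labelled C3 KO 1 to 4. It was at 205, 260, 181 and 239 CPM in the libraries labelled S1pr1 KO 1 to 4, and at 192, 174, 193 and 164 CPM in WT 1 to 4. Of the S1pr1 KO libraries 3 of 4 lay above all WT libraries and S1pr1 KO 3 lay among them. The means were 221 ± 35.2 CPM in S1pr1 KO and 181 ± 14.3 CPM in WT (SD, n = 4 each), which gave a log2 fold change of 0.29 with an SE of 0.12 and a 95% interval of 0.02 to 0.56 (edgeR adjusted p = 0.239). Without libraries C3 KO 4 and S1pr1 KO 2 as labelled it was 0.20 (edgeR adjusted p = 0.345, range over all alternatives 0.163 to 0.803). Against C3 KO, S1pr1 KO differed in Krt8 by 0.30 on the log2 scale (SE 0.12, edgeR adjusted p = 0.362).

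Krt18, the type I partner of Krt8, was at 91.5, 92.5, 76.0 and 97.0 CPM in the libraries labelled C3 KO 1 to 4. It was at 101, 116, 81.2 and 103 CPM in the libraries labelled S1pr1 KO 1 to 4, and at 99.4, 80.8, 86.9 and 77.1 CPM in WT 1 to 4. As for Krt8, 3 of 4 S1pr1 KO libraries exceeded all WT libraries, but the log2 fold change of 0.22 (SE 0.11) did not pass (edgeR adjusted p = 0.326). Krt19, the shortest keratin, which lacks most of the tail domain, was at 169, 170, 150 and 189 CPM in the libraries labelled C3 KO 1 to 4. It was at 182, 189, 167 and 218 CPM in the libraries labelled S1pr1 KO 1 to 4, and at 183, 135, 193 and 155 CPM in WT 1 to 4. The lowest Krt19 value of all 12 was that of WT 2. Krt7, a type II chain of ducts and airways, was at 419, 457, 404 and 447 CPM in the libraries labelled C3 KO 1 to 4. It was at 485, 447, 369 and 379 CPM in the libraries labelled S1pr1 KO 1 to 4, and at 432, 421, 444 and 392 CPM in WT 1 to 4. S1pr1 KO held both the highest and the lowest Krt7 values, and no direction separated the groups.

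In C3 KO against WT the intervals around the luminal fold changes were narrow. The log2 fold change was 0.03 for Krt7 (95% interval -0.16 to 0.22), -0.01 for Krt8 (-0.28 to 0.26), 0.05 for Krt18 (-0.19 to 0.30) and 0.03 for Krt19 (-0.22 to 0.28). No interval reached beyond 0.30 in either direction. In S1pr1 KO against WT the interval was -0.20 to 0.18 for Krt7 and -0.07 to 0.44 for Krt19. In whole tissue, fewer cells of a type and less RNA per cell cannot be told apart, so each level is a statement on the summed RNA of all epithelia.

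The basal keratins were few in reads and very uneven, in every group. Krt5 had 88, 6, 14 and 85 reads in the libraries labelled C3 KO 1 to 4, which is 2.54, 0.176, 0.389 and 2.18 CPM. It had 5, 335, 153 and 107 reads in the libraries labelled S1pr1 KO 1 to 4, which is 0.0947, 8.32, 4.06 and 3.18 CPM. In WT 1 to 4 it had 30, 1444, 7 and 28 reads, which is 0.702, 39.6, 0.205 and 0.768 CPM. WT 2 was thus 51.6 times the next WT library, and each group held libraries on either side of 1 CPM except WT without WT 2.

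Krt15 was high in the same libraries as Krt5. It was at 9.02, 0.585, 1.06 and 8.88 CPM in the libraries labelled C3 KO 1 to 4 and at 1.42, 24.2, 9.64 and 8.22 CPM in the libraries labelled S1pr1 KO 1 to 4. It was at 0.538, 26.0, 0.879 and 3.40 CPM in WT 1 to 4. WT 2 and the library labelled S1pr1 KO 2 were the highest, with close values. Krt14 followed another order, at 0.434, 0.849, 0.111 and 0.256 CPM in the libraries labelled C3 KO 1 to 4 and at 0.379, 0.894, 3.82 and 0.891 CPM in the libraries labelled S1pr1 KO 1 to 4. In WT 1 to 4 it was at 0.585, 12.04, 0.322 and 0.219 CPM. After WT 2, the highest Krt14 was in S1pr1 KO 3, not in the library labelled S1pr1 KO 2 where Krt5 was highest among the knockouts.

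Krt17 was near the limit of detection. It had 11, 9, 3 and 8 reads in the libraries labelled C3 KO 1 to 4, 0, 89, 42 and 23 reads in the libraries labelled S1pr1 KO 1 to 4, and 1, 41, 0 and 1 reads in WT 1 to 4. In CPM these were 0.0833 to 0.318 in C3 KO, 0 to 2.21 in S1pr1 KO and 0 to 1.12 in WT. The 0 in S1pr1 KO 1 allows up to 0.0568 CPM and the 0 in WT 3 up to 0.0879 CPM, at 3 counts per library and for counting error only. All 4 C3 KO libraries and 3 of 4 S1pr1 KO libraries exceeded WT 1, WT 3 and WT 4.

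**Figure D2:**
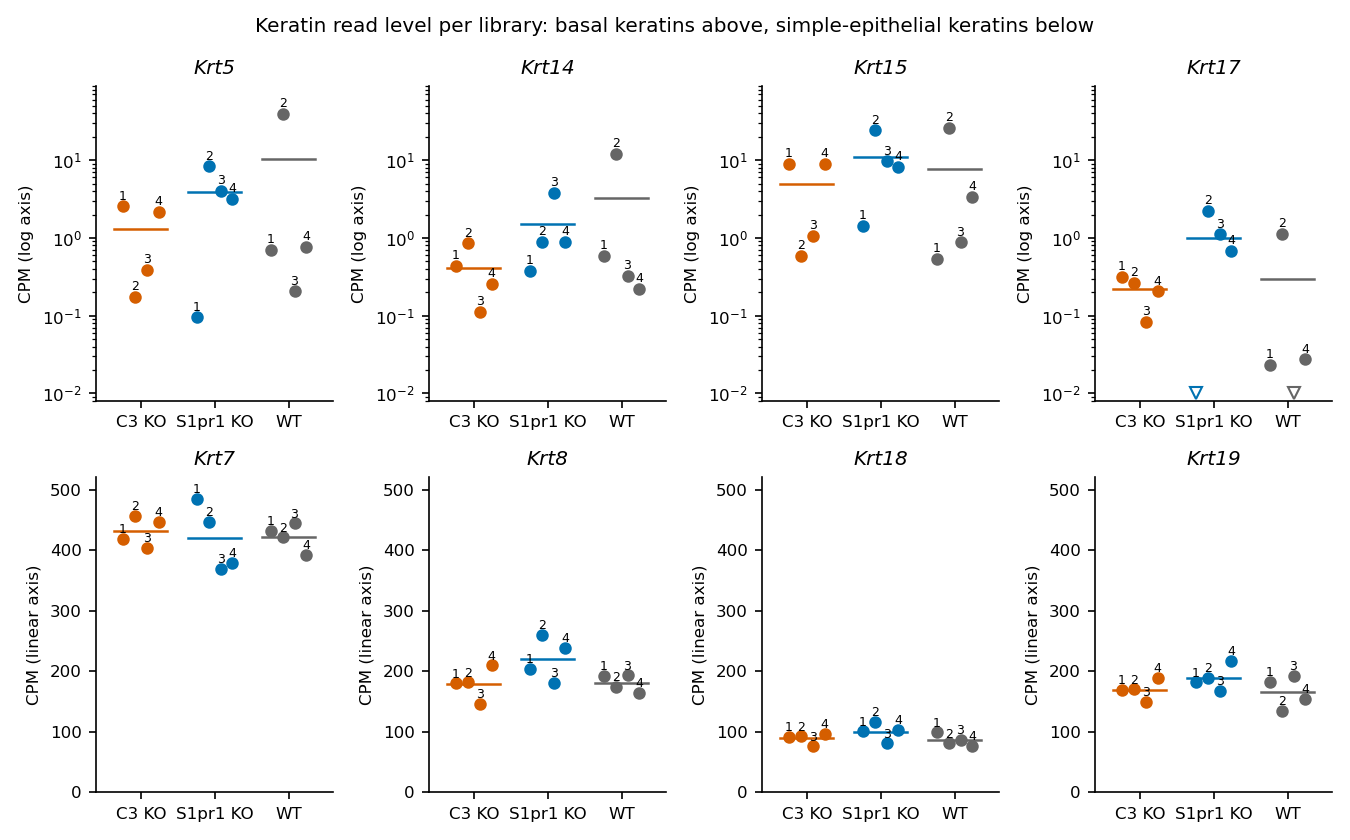
CPM of the 8 keratins per library, with C3 KO, S1pr1 KO and WT from left to right, replicate numbers above the points and group means as lines. Basal keratins (top, log axis) range from 0 to 39.6 CPM with WT 2 highest in Krt5, Krt14 and Krt15, luminal keratins (bottom, linear axis) stay within 1.31 to 1.78 times between the lowest and the highest library, and open triangles at the lower edge stand for 0.

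In C3 KO against WT the sign of the basal fold changes turned with WT 2. Over all libraries, Krt5 averaged 1.32 ± 1.21 CPM in C3 KO and 10.3 ± 19.5 CPM in WT (SD, n = 4 each), and the log2 fold change was -2.96 with an SE of 1.51 (edgeR adjusted p = 0.501). Without WT 2 it was 1.24 (edgeR adjusted p = 0.791, range over all alternatives 0.440 to 0.878). Krt14 averaged 0.412 ± 0.320 CPM in C3 KO and 3.29 ± 5.84 CPM in WT, and its log2 fold change of -3.00 had an SE of 1.25 (edgeR adjusted p = 0.417) and came to 0.11 without WT 2. For Krt15 the log2 fold change was -0.65 (SE 1.17), or 1.62 without WT 2, and for Krt17 it was -0.42 (SE 1.33), or 3.41 without WT 2. All 4 basal members thus had a negative sign in C3 KO against WT with WT 2 and a positive one without it, and none passed the test in either fit. With WT 2 kept and libraries C3 KO 4 and S1pr1 KO 2 as labelled left out, the 4 values were -3.31, -2.82, -1.12 and -0.40 for Krt5, Krt14, Krt15 and Krt17.

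In S1pr1 KO against WT the signs split with WT 2 included. Krt5 averaged 3.91 ± 3.40 CPM in S1pr1 KO and 10.3 ± 19.5 CPM in WT, and the log2 fold change was -1.40 with an SE of 1.39 (edgeR adjusted p = 0.651). Krt14 differed by -1.14 (SE 1.12), Krt15 by 0.50 (SE 1.15) and Krt17 by 1.76 (SE 1.197) on the same scale. Without WT 2 these were 2.79 for Krt5, 1.96 for Krt14, 2.76 for Krt15 and 5.58 for Krt17, all positive. Their edgeR adjusted p-values without WT 2 were 0.245, 0.245, 0.236 and 0.09997, so no basal keratin passed with 3 WT libraries either. With WT 2 kept and C3 KO 4 and S1pr1 KO 2 as labelled left out, the 4 were -2.11, -0.97, -0.27 and 0.99 in the same order, so Krt15 changed sign. The Krt17 value without WT 2 rests on 1, 0 and 1 reads in the remaining WT libraries.

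S1pr1 KO against C3 KO does not use WT libraries except for the shared spread. Krt5 differed by 1.55 (SE 1.47), Krt14 by 1.85 (SE 1.25), Krt15 by 1.15 (SE 1.17) and Krt17 by 2.18 (SE 1.24) on the log2 scale, with edgeR adjusted p-values of 0.715, 0.584, 0.738 and 0.513. Without libraries C3 KO 4 and S1pr1 KO 2 as labelled these differences were 1.21, 1.85, 0.84 and 1.39. The 95% interval for Krt5, -1.65 to 4.75, shows how wide a difference these groups leave possible. Over the 8 members the median log2 fold change was -0.22 for C3 KO and 0.20 for S1pr1 KO, each over WT, and 0.72 for S1pr1 KO over C3 KO, beside -0.00, -0.00 and 0.00 over all genes tested. Without WT 2 these medians of the members were 0.08, 1.12 and 0.72, and without C3 KO 4 and S1pr1 KO 2 as labelled they were -0.24, 0.05 and 0.57. The first pair of comparisons shares its WT libraries, and each knockout enters 2 comparisons.

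**Figure D3:**
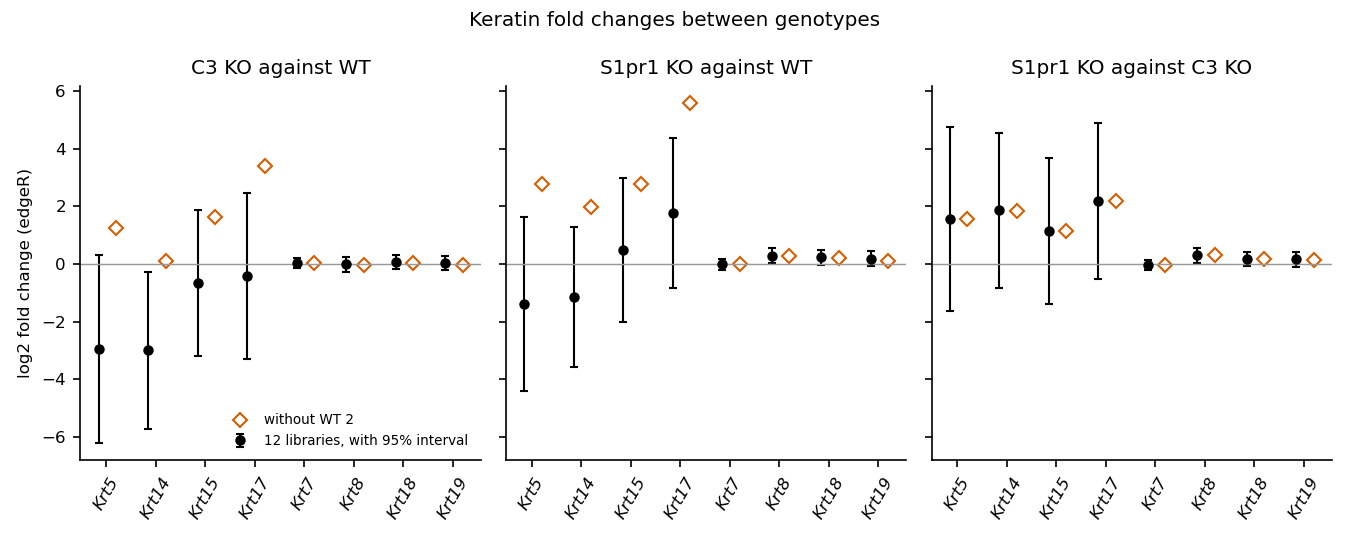
Log2 fold changes of the 8 keratins in edgeR for each knockout over WT and for S1pr1 KO over C3 KO, as black points with 95% intervals for 12 libraries and as open diamonds without WT 2. The diamonds of the basal keratins lie above 0 in both comparisons with WT, where Krt5 is -2.96 and -1.40 with all libraries, while the luminal keratins stay near 0 in both fits.

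Several squamous markers, though not all of the list, were high in WT 2, the library with the highest Krt5, Krt14 and Krt15. WT 2 held 626 CPM of Krt4 and 632 CPM of Krt13, the keratin pair of the suprabasal layers of oesophagus and other mucosal squamous epithelia. In the other 11 libraries Krt4 was at 0 to 5.43 CPM and Krt13 at 0.111 to 5.31 CPM, highest in WT 1 for both. The cornified envelope gene Lor was at 186 CPM in WT 2, and Rptn and Tgm3, which act in the same cornifying layers, were at 75.6 and 45.5 CPM. The squamous list of 20 genes summed to 11.4 to 14.4 CPM in C3 KO, to 12.3 to 16.6 CPM in S1pr1 KO, and to 24.6, 1640, 10.5 and 9.60 CPM in WT 1 to 4. Most of the sum in WT 2 was Krt4 and Krt13. Other genes of the list were not raised there. Ivl and Krt1 were highest outside WT 2, at 0.793 and 0.833 CPM. Krt10 was at 2.74 to 3.32 CPM over the 12 libraries, and Crnn was at 0 in all. In S1pr1 KO against WT, Krt13 differed by -9.20 (SE 2.32, edgeR adjusted p = 0.0691) and Krt4 by -9.34 (SE 2.39, edgeR adjusted p = 0.0719) on the log2 scale. Without WT 2 the log2 fold change was -2.90 for Krt13 (edgeR adjusted p = 0.134) and -2.98 for Krt4 (edgeR adjusted p = 0.199), with ranges over all alternatives of 0.0519 to 0.524 and 0.0553 to 0.609. Dsg3, the desmosomal cadherin of basal squamous cells, was at 7.54 CPM in WT 2 and at 0 to 0.266 CPM in the other libraries.

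The library labelled S1pr1 KO 2 had 24.2 CPM of Krt15, close to WT 2, with 0.522 CPM of Krt4 and a squamous sum of 16.6 CPM. Transcripts of cartilage, which surrounds the trachea and main bronchi, and of skeletal muscle were summed as 2 lists chosen after their values had been seen. The cartilage sum of 12 genes was 16.0, 8.25, 10.3 and 8.29 CPM in the libraries labelled C3 KO 1 to 4. It was 7.27, 25.4, 17.1 and 20.7 CPM in the libraries labelled S1pr1 KO 1 to 4, and 10.5, 21.7, 9.61 and 14.3 CPM in WT 1 to 4. The summed CPM of the 4 basal keratins was 12.3, 1.87, 1.64 and 11.5 in the libraries labelled C3 KO 1 to 4. It was 1.89, 35.6, 18.6 and 13.0 in the libraries labelled S1pr1 KO 1 to 4, and 1.85, 78.8, 1.41 and 4.42 in WT 1 to 4. The library labelled C3 KO 4 was high in basal keratins and low in cartilage genes, while C3 KO 1, WT 2, WT 4 and S1pr1 KO 2 to 4 as labelled were the 6 highest in cartilage genes. Skeletal muscle genes summed to 189 CPM in the library labelled S1pr1 KO 2 and 271 CPM in WT 2, against 13.0 to 22.1 CPM elsewhere. Over the 12 libraries the cartilage sum ran with Krt5 at r of 0.84 (rho 0.92), with Krt15 at 0.79, with Krt17 at 0.79 and with Krt14 at 0.57. The skeletal muscle sum ran with Krt5 at r of 0.78, Krt15 at 0.69, Krt14 at 0.67 and Krt17 at 0.67. These are descriptions in log2 CPM with no p, since both lists were chosen after their values had been seen, and the points share each library's scaling. Without S1pr1 KO 1 and WT 2, Krt5 had r of 0.80 with the cartilage sum and 0.66 with the muscle sum. Whether such tissue supplied the basal keratin reads was not tested.

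**Figure D4:**
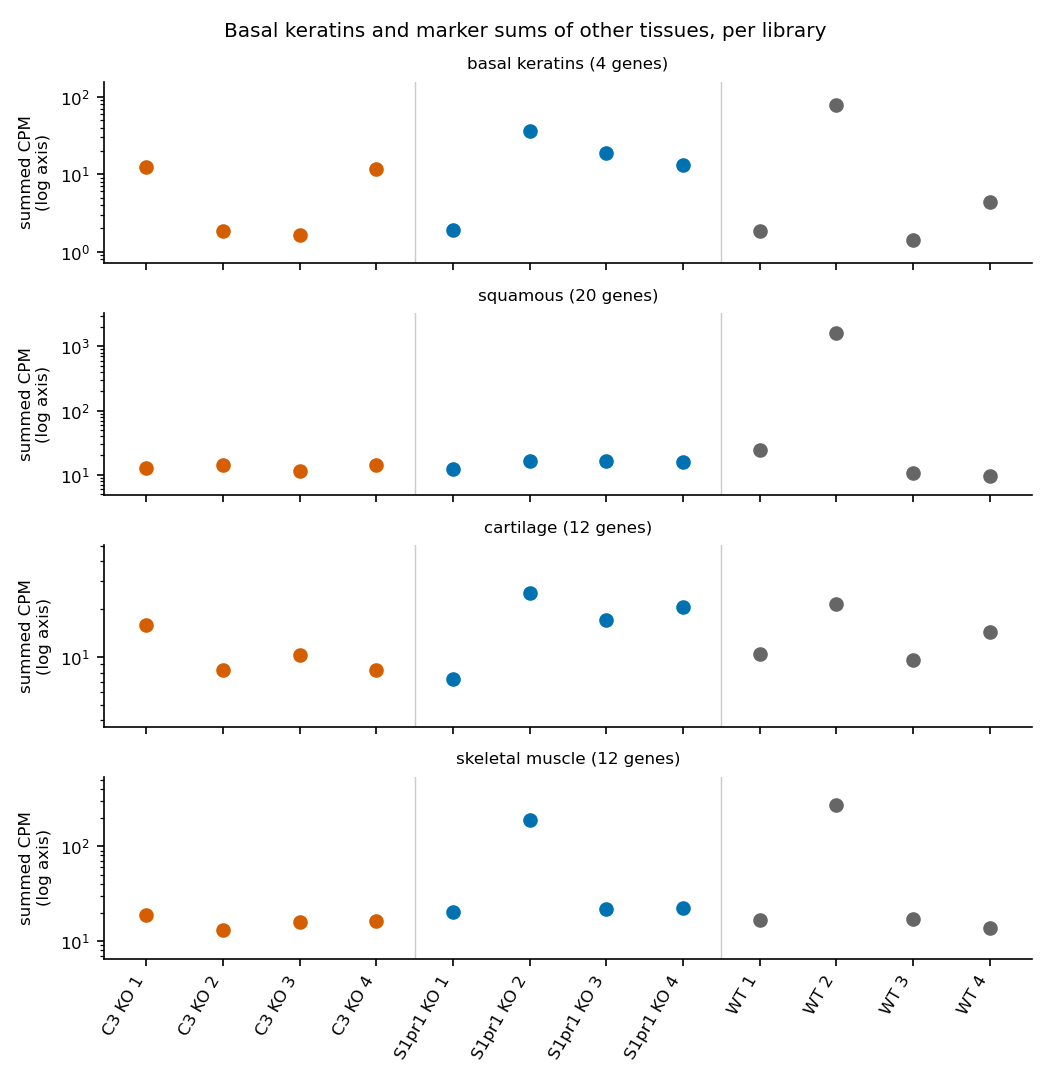
Summed CPM (log axes) of the 4 basal keratins and of squamous, cartilage and skeletal muscle gene lists in each library, in the order C3 KO, S1pr1 KO and WT. WT 2 alone is high in squamous genes at 1640 CPM, WT 2 and the library labelled S1pr1 KO 2 are high in skeletal muscle genes at 271 and 189 CPM, and the basal keratins run from 1.41 to 78.8 CPM.

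Thymic epithelium also makes Krt5, Krt14 and Krt8. Foxn1, the master regulator of thymic epithelium, was at 0 in 10 of 12 libraries and highest in WT 2, at 0.110 CPM. Psmb11, the thymoproteasome subunit of cortical cells, was at most 0.0586 CPM. Other genes of the thymic list were higher, with Ccl25 at 4.98 to 7.45 CPM and Tbata at 2.71 to 6.40 CPM over the 12 libraries. Whether thymic tissue supplied keratin reads was not tested. The whole list of 12 thymic genes, some of which other lung cells also make, summed to 331 to 355 CPM in C3 KO, 327 to 389 CPM in S1pr1 KO and 363 to 397 CPM in WT, with 1 to 3 members at 0 in each library. Milk proteins, the products of differentiated mammary luminal cells, were low. Csn3 (kappa casein) was highest in S1pr1 KO 3 and S1pr1 KO 4, at 19.0 and 25.4 CPM. S1pr1 KO 4 also had the highest Krt19 of all 12 libraries, at 218 CPM, and 239 CPM of Krt8, below only the library labelled S1pr1 KO 2, while S1pr1 KO 3 had the lowest Krt8, Krt18 and Krt19 of its group. The milk list of 10 genes summed to 0.307 to 5.36 CPM in C3 KO, 1.48 to 29.7 CPM in S1pr1 KO and 0.713 to 9.27 CPM in WT, with 0 of 4 tested members called in each comparison.

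The spread within groups set the 2 sets of keratins apart. The within-group SD of log2 CPM was 2.57 for Krt5, 2.07 for Krt15, 1.86 for Krt17 and 1.74 for Krt14. These exceeded the SD of 99.8 to 99.96% of tested genes, whose median was 0.21. For the luminal members it was 0.13 for Krt7, 0.18 for Krt18, 0.18 for Krt19 and 0.19 for Krt8, which exceeded that of 29.3 to 47.2% of tested genes. Krt17 had a mean level above only 2.19% of tested genes and Krt15 above 34.5%, while the luminal members stood above 87.3 to 98.7%, so the sets also differ in the counting error behind each value.

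Of the 6 pairs within each set, 5 basal and 3 luminal pairs passed by r, and 4 basal and 3 luminal pairs by rho. Over 12 libraries and 28 pairs, Krt8 with Krt18 had a Pearson r of 0.92 and a Spearman rho of 0.92 in log2 CPM (permutation p adjusted over the pairs 0.00112 and 0.00224). With the group means removed r was 0.91, and it was 0.83 without C3 KO 3 and the library labelled S1pr1 KO 2, the libraries farthest from the median of Krt8. Krt5 with Krt14 had r of 0.71 and rho of 0.64 (adjusted permutation p 0.0334 and 0.102). Their r was 0.48 without S1pr1 KO 1 and WT 2, and 0.47 without WT 2 alone, so that relation rests largely on WT 2. Krt5 followed Krt15 more closely than its partner Krt14, with r of 0.90 and rho of 0.87 (adjusted permutation p 0.00112 and 0.00373), and r of 0.94 without S1pr1 KO 1 and WT 2. The difference between these correlations was not tested. Krt5 with Krt17 had r of 0.83, Krt15 with Krt17 0.80 and Krt14 with Krt17 0.68 (adjusted permutation p 0.00877, 0.0190 and 0.0365), and Krt14 with Krt15 had 0.54 (0.210).

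Among luminal pairs, Krt8 with Krt19 had r of 0.78 and Krt18 with Krt19 r of 0.75 (adjusted permutation p 0.0190 and 0.0238). The 3 pairs with Krt7 had r of 0.15 to 0.47 and did not pass. None of the 16 pairs of a basal with a luminal member passed, with r between -0.40 and 0.38. Without S1pr1 KO 3 and WT 2, Krt14 had r of 0.79 with Krt18, 0.73 with Krt8 and 0.63 with Krt19, against -0.05, 0.11 and -0.31 over all 12. The points share the scaling of each library, and all 12 libraries enter, C3 KO 4 and S1pr1 KO 2 as labelled included.

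**Figure D5:**
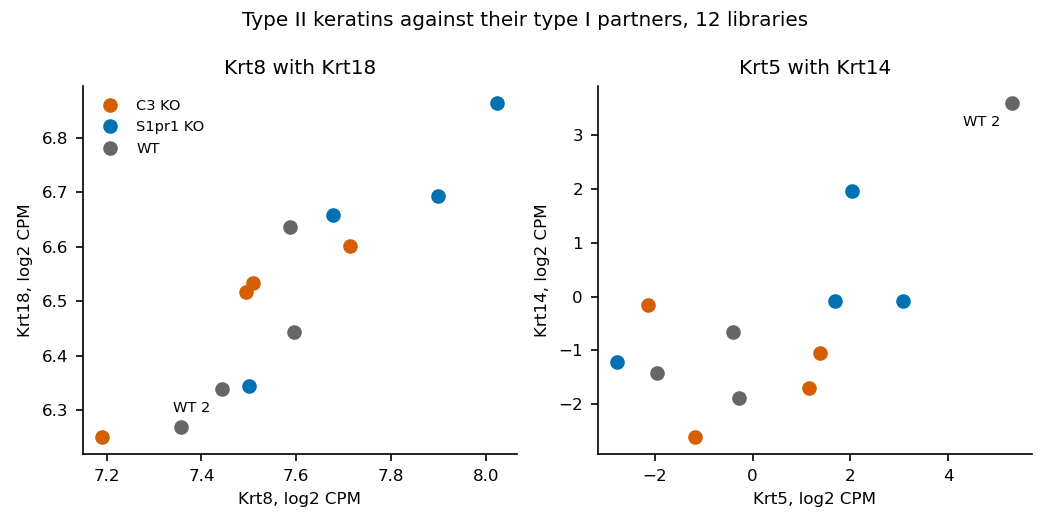
Log2 CPM of Krt8 against Krt18 (left) and of Krt5 against Krt14 (right), with 1 point per library and C3 KO, S1pr1 KO and WT in orange, blue and grey. Krt8 and Krt18 rise together over a narrow range (r = 0.92), while Krt5 and Krt14 span a wide range with WT 2 at the upper end (r = 0.71, or 0.48 without S1pr1 KO 1 and WT 2).

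A family of 80 relations between members and summed marker lists was added after the values had been seen. It includes the cartilage and skeletal muscle lists picked from these data. Krt7 followed the alveolar type 1 list with r of 0.80 (adjusted permutation p 0.0248) and rho of 0.69 (0.0967). Without S1pr1 KO 1 and S1pr1 KO 3 its r was 0.63. Krt5 with both picked lists and Krt15 with the muscle list had smaller unadjusted p for r than Krt7 had here. The adjusted p of 0.0248 therefore rests partly on the picked lists and is not read as a pass. Krt8, Krt18 and Krt19 followed a list of general epithelial genes such as Epcam, Cdh1 and Elf3 by rank, with rho of 0.85, 0.80 and 0.82 (adjusted permutation p 0.0320, 0.0440 and 0.0414). Their r values of 0.71, 0.68 and 0.72 did not pass the adjustment (0.0786, 0.0888 and 0.0759). Without the 2 libraries farthest from the median of each keratin, r was 0.72, 0.67 and 0.77. Among the basal keratins, Krt14 followed the squamous list by rank, with rho of 0.82 (adjusted permutation p 0.0414) and r of 0.79 (0.0501), and r of 0.60 without S1pr1 KO 3 and WT 2. Krt5 with the squamous list had r of 0.68 and rho of 0.65 (adjusted permutation p 0.0759 and 0.138), and r of 0.37 without S1pr1 KO 1 and WT 2. Krt15 and Krt17 had r of 0.44 and 0.41 with it and did not pass.

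Of the 45 other keratin genes, 12 passed the filter and 0 were called in any comparison, beside 0.00989, 1.35 and 0% of all tested genes. The most abundant was Krt80, a type II keratin, at 176 to 289 CPM and a mean of 35.0 FPKM, which lies between Krt7 and Krt15 per kilobase. Krt79 and Krt23 were at 20.7 to 47.7 CPM and 10.02 to 21.5 CPM. These 3, like the squamous and thymic genes given by level, were chosen after the values were seen. The 8 members held 83.0 to 86.9% of all keratin FPKM in C3 KO and 86.8 to 89.2% in S1pr1 KO, and 84.7, 31.3, 84.7 and 83.7% in WT 1 to 4. The low share in WT 2 goes with its Krt4 and Krt13.

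Genes of basal cells beyond the keratins gave no calls. Of 20 genes of basal airway cells, 17 were tested and 0 called in each comparison, with median log2 fold changes of -0.11 for C3 KO and -0.06 for S1pr1 KO, each over WT, and 0.05 for S1pr1 KO over C3 KO. Trp63, the transcription factor p63 that defines basal cells, was at 0.644 to 1.51 CPM in C3 KO, 1.29 to 2.39 CPM in S1pr1 KO and 0.732 to 3.43 CPM in WT, again highest in WT 2. Pkp1, plakophilin of stratified epithelia, was at 30.2 CPM in WT 2 and at 0 to 1.14 CPM elsewhere. Of the 9 genes of myoepithelium and other smooth muscle 0 were called, with medians of -0.21, -0.11 and 0.13 in the same order.

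Genes of simple and luminal epithelium gave no calls either. Of 24 general epithelial genes 0 were called, with medians of 0.03, 0.10 and 0.05 in the same order of comparisons. Cldn4, a tight junction claudin, was at 7.39 ± 1.39 CPM in S1pr1 KO and 4.94 ± 0.930 CPM in WT (SD, n = 4 each), and the log2 fold change was 0.58 with an SE of 0.17 (edgeR adjusted p = 0.102). Of 17 genes of mammary luminal cells 0 were called, with medians of 0.09, 0.24 and 0.17. Prom1, the stem cell glycoprotein prominin, differed by 0.62 (SE 0.19, edgeR adjusted p = 0.118) in S1pr1 KO against WT and had the lowest p of that list. Of the 14 genes each of alveolar type 1 and type 2 cells 0 were called, and the type 1 list summed to 10568 to 11220 CPM in C3 KO, 9297 to 11466 CPM in S1pr1 KO and 10214 to 10905 CPM in WT.

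Desmosomes and plakins anchor keratin filaments. In S1pr1 KO against WT, 2 of the 16 tested genes of this list rose, beside 1.35% of all tested genes called in either direction. Dsg2, the desmosomal cadherin of simple epithelia, was at 17.8, 21.5, 19.8 and 20.3 CPM in the libraries labelled S1pr1 KO 1 to 4 and at 11.6, 11.6, 12.4 and 10.8 CPM in WT 1 to 4. It was at 14.0, 12.2, 12.9 and 16.3 CPM in the libraries labelled C3 KO 1 to 4. The S1pr1 KO libraries all lay above the other 8. The log2 fold change was 0.78 (SE 0.10, edgeR adjusted p = 0.0142), with 20 of 24 alternatives past the threshold. The call was lost without WT 4, without S1pr1 KO 4, without WT 2 and the library labelled S1pr1 KO 2 together, and with the ciliated score as a covariate, where the adjusted p was highest at 0.147.

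Eppk1, epiplakin, which binds keratin filaments, was at 8.48, 15.2, 9.67 and 17.8 CPM in the libraries labelled S1pr1 KO 1 to 4 and at 4.28, 3.87, 5.97 and 4.47 CPM in WT 1 to 4, with no overlap. Its log2 fold change was 1.46 (SE 0.29, edgeR adjusted p = 0.0358), and 13 of 24 alternatives kept it past the threshold, in a range of 4.68e-05 to 0.434. In the libraries labelled C3 KO 1 to 4 it was at 9.37, 6.70, 7.52 and 14.7 CPM, a log2 fold change of 1.04 over WT (SE 0.29) that did not pass (edgeR adjusted p = 0.298) except in DESeq2. Mdk, the heparin-binding growth factor midkine, rose in S1pr1 KO against WT by 0.57 on the log2 scale (SE 0.10, edgeR adjusted p = 0.0466), with 11 of 24 alternatives past the threshold. It was the only 1 of 13 tested genes of a list of transitional alveolar cells that was called, beside 1.35% of all tested genes.

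Markers of ciliated cells moved with S1pr1 KO as well. Of 24 genes, 4 rose against WT (Ccdc153, Cfap43, Mlf1 and Ccdc113), beside 1.35% of all tested genes called in either direction. Without S1pr1 KO 4 only 2 genes of any kind were called in that comparison, and without WT 4 only 5. The list summed to 935 to 1332 CPM in C3 KO, 1202 to 1528 CPM in S1pr1 KO and 835 to 1096 CPM in WT, with no member at 0. When the ciliated score entered as covariate, the log2 fold change of Krt8 in S1pr1 KO against WT was 0.15, beside 0.29 without it, and that of Krt18 was 0.23, beside 0.22. Of the 15 tested club cell genes and the 12 of mesothelium 0 were called in each comparison. Cd4 fell by 1.10 on the log2 scale in S1pr1 KO against WT (SE 0.19, edgeR adjusted p = 0.0276). It was the only 1 of 8 tested thymocyte genes called, beside 1.35% of all tested genes. Ciliated cells make Krt8 and Krt18 themselves. Over the 12 libraries the ciliated sum had r of 0.63 with Krt8 and 0.46 with Krt18, neither of which passed (adjusted permutation p 0.158 and 0.337). With the group means removed these r values were 0.35 and 0.11. Whether ciliated cells account for the levels of Krt8 and Krt18 was not tested. Of the 11 tested genes of other intermediate filaments (vimentin, desmin, lamins and neurofilaments) 0 were called in each comparison. Prph, peripherin, came closest in S1pr1 KO against WT with 1.37 (SE 0.39, edgeR adjusted p = 0.0941).

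The genes whose levels were most like each keratin were ranked by Pearson r of log2 CPM over 12 libraries among 14230 other protein-coding genes, as a description. For Krt15 they included Aqp3, a water and glycerol channel of basal cells (r = 0.96), and Pax9, a transcription factor of foregut epithelium (0.94). Aqp3 was at 0.861 to 2.98 CPM in C3 KO, 1.10 to 5.09 CPM in S1pr1 KO and 0.491 to 6.67 CPM in WT, with the highest value in WT 2. For Krt5 they were Chl1 (0.95), Rbm15 (0.93) and Mier3 (0.91), and for Krt14 Pkp1 (0.94), Lgals7, a galectin of stratified epithelia (0.87), and Gjb2, connexin 26 (0.86). Without WT 2 and S1pr1 KO 3 the values for Krt14 were 0.79, 0.56 and 0.48. For Krt17 the closest was Gspt1 (0.90), for Krt7 Lamb3, the laminin chain of hemidesmosome anchorage (0.84), and for Krt19 Adam23 (0.89). Tbcb, a tubulin folding cofactor, was among the 3 closest of both Krt8 (0.89) and Krt18 (0.86), led by Gadd45gip1 for Krt8 (0.91) and Pigu for Krt18 (0.87).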

How the data were processed

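Whole-lung RNA of 12 libraries was sequenced on an Illumina platform. The submitters' processing notes name CASAVA, STAR and the builds GRCm39 and mm39 without versions or roles, and no counting tool or strand setting is given in the sources used here. The deposited table, per the file headers, holds a read count per gene and library and the FPKM (counts per kilobase and library total) that the authors derived, with gene coordinates on GRCm39. Reads from antisense or copied loci cannot be told apart without the strand setting: the antisense Gm671 had 0.650% of the reads of Krt7, Gm36026 had 0.234% of those of Krt8, and the copy Krt8-ps had 0.140%.

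Counts were filtered with filterByExpr by group, scaled by TMM and fitted in edgeR 4.0.16 (R 4.3.3) with the quasi-likelihood test, 1 mean per group over 12 libraries and Benjamini-Hochberg adjustment over 20229 genes at 0.05. SEs and 95% intervals were computed back from that test. Alternatives were DESeq2 1.42.0, limma 3.58.1 (voom, or log2 of FPKM plus 1 or 0.1), other scalings, filters, a ciliated covariate and leaving libraries out. The steps were tested on simulated data. Correlations used log2 CPM (prior count 2) with 100000 permutations, two-sided. Replicate numbers were given in deposition order and pair no libraries.

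Named are the members, list genes called or up to 3 of lowest p per list and comparison, and the 3 genes most like each member with a mean of at least 1 CPM, of which 1 is not reported here. The members and lists were chosen with earlier results of these data known. Promoters are RefSeq sequences on GRCm38.p6. Total counts of 32274797 to 53063470 per library make counting error small for the luminal keratins, and large for Krt17 with 0 to 89 reads.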

Additional observations from a re-analysis of the deposited data

Results flagged for a closer look

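Krt17 in WT 2 stood apart from its group. It was at 1.12 CPM there, against 0 to 0.0274 CPM in the other 3 WT libraries, and on log2 CPM the gap to the nearest library divided by the range of the group was 0.865, above Dixon's critical value at 95% for 4 libraries. It was the only 1 of 51 groups tested past that value on the log2 scale, and chance gives about 1 in 20. On the linear CPM scale 5 of the 24 groups of members were past it. These were WT 2 for Krt5 (0.986), Krt14 (0.969), Krt15 (0.888) and Krt17 (0.976), and S1pr1 KO 3 for Krt14 (0.850), so WT 2 stood apart in all 4 basal keratins on that scale. The Krt17 value rests on 41 reads, against 1, 0 and 1 in the other WT libraries.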

How the results depend on the processing

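None of the 8 keratins was called under an alternative that gave it an adjusted p, which were 24 for each keratin except Krt14 (22) and Krt17 (20 in C3 KO against WT and 21 in the other comparisons). Krt14 had none with DESeq2, and neither gene passed the filter of 1 CPM. The number of genes called, 2 in C3 KO against WT, 274 in S1pr1 KO against WT and 0 in S1pr1 KO against C3 KO, was 155, 1223 and 295 with DESeq2, 21, 928 and 36 with limma voom, 6, 171 and 7 on log2(FPKM + 1), and 6, 150 and 6 on log2(FPKM + 0.1). With the ciliated score as covariate it was 1 and 37 against WT. Without a filter it was 15 in S1pr1 KO against C3 KO, and with only the groups compared 1 in C3 KO against WT. Without libraries C3 KO 4 and S1pr1 KO 2 as labelled it was 31, 473 and 3, and without WT 2 and the library labelled S1pr1 KO 2, chosen after seeing the data, 1, 10 and 2. Leaving out 1 library gave 1 to 32, 2 to 571 and 0 to 13. It was 2 in S1pr1 KO against WT without S1pr1 KO 4 and 5 without WT 4.

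Signs of log2 fold changes turned as follows, and the cause was not tested. In C3 KO against WT, Krt17 was 1.44 with limma voom, Krt15 0.039 on log2(FPKM + 0.1) and Krt8 0.0014 with a filter of 1 CPM. Krt19 was -0.041 and Mdk -0.030 with the ciliated score, -0.025 and -0.028 without libraries C3 KO 4 and S1pr1 KO 2 as labelled, and Krt19 was -0.060 without WT 2 and S1pr1 KO 2. That last pair also gave 1.23 for Krt5, 0.11 for Krt14, 1.61 for Krt15 and 3.40 for Krt17. In S1pr1 KO against WT, Krt5 was 0.13 and Krt14 0.52 with limma voom, 0.33 and 0.11 on log2(FPKM + 0.1), and 2.10 and 2.14 without WT 2 and S1pr1 KO 2. Krt7 was 0.0064 with upper-quartile scaling. Krt15 was -0.36 with the ciliated score and -0.27 without libraries C3 KO 4 and S1pr1 KO 2 as labelled. Krt13 was -0.96 with the ciliated score in S1pr1 KO against C3 KO.

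Leaving out 1 library in C3 KO against WT gave -3.47 to 1.24 for Krt5, -3.61 to 0.11 for Krt14, -1.12 to 1.62 for Krt15, -0.83 to 3.41 for Krt17, -0.0039 to 0.068 for Krt7, -0.091 to 0.083 for Krt8, -0.053 to 0.11 for Krt19 and -0.028 to 0.15 for Mdk. In S1pr1 KO against WT it gave -2.10 to 2.79 for Krt5, -2.20 to 1.96 for Krt14, -0.27 to 2.76 for Krt15 and -0.084 to 0.049 for Krt7, and in S1pr1 KO against C3 KO -0.11 to 0.019 for Krt7. The correlation of Krt5 with Krt14 was 0.48 without S1pr1 KO 1 and WT 2, and 0.47 to 0.78 with 1 library left out, and that of Krt8 with Krt18 was 0.87 to 0.93. No paired analysis was possible because the labels give no replicate numbers that groups share. Depth limits Krt17 and Krt14, with 0 to 89 and 4 to 439 reads per library.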
